A study of Homo sapiens with 15 samples.

Results

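Lysophosphatidic acid (LPA) and sphingosine-1-phosphate (S1P) are small signalling lipids that act on G protein-coupled receptors at the cell surface. Autotaxin, the secreted enzyme encoded by ENPP2, makes most extracellular LPA by removing choline from lysophosphatidylcholine, and LPAR1, LPAR2 and LPAR3 are the LPA receptors of the EDG family. S1PR1, S1PR2 and S1PR3 are the S1P receptors of the same family. The receptors couple, each in its own combination, to Gi, Gq and G12/13 proteins and act on migration and proliferation, and LPA signalling is best known in breast cancer cells for invasion and metastasis to bone.

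These 7 genes were taken by their current symbol, or by the older EDG name under which the array lists them, from 30988 gene names read by 41000 probes. All 7 were on the array, with 9 probes in all, and all 7 passed the filter on low variability in each treatment. The cells were MDA-MB-231, an established human triple-negative breast cancer line with mesenchymal features. The study asked what CtBP2, an NADH-binding transcriptional corepressor, controls in these cells. RNA was compared on 15 two-colour arrays, 5 for each of 3 treatments, and the labels call the 5 samples biological replicates.

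The shCtBP2 arrays carried cells with stable RNA interference of CtBP2, made by plasmid transfection and puromycin selection. The HIPP and P4 arrays carried cells exposed to 1 of 2 small CtBP2 inhibitors of the phenylpropanoate type, HIPP with a hydroxyimino group and P4 with a hydrazone group. Cells were collected at 24 h. On every array the treated RNA was labelled with Cy5 and the control RNA with Cy3, and the labels give untreated MDA-MB-231 cells as the control throughout, although the study's text sets the knockdown against a scrambled shRNA. Dyes were never swapped, so a lasting bias of a probe towards one dye cannot be told apart from a change shared by all 3 treatments. A constant dye bias cancels in the difference between treatments. Doses of the inhibitors on the arrays are not in the labels, and the methods use different doses for the 2 compounds, so HIPP and P4 were set side by side and not tested against each other.

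Between 64.9% and 81.0% of gene spots per channel were well above background, a mark the scanning software gives each spot. All 6 markers of MDA-MB-231 were above background in the control channel on all 15 arrays, whereas CDH1 (E-cadherin) and PGR (progesterone receptor) were on none. ESR1 was above background on 11 arrays and KRT19 on 15. The arrays lay on 4 slides. P4 replicates 1 to 4 filled one slide, scanned on another day than the rest, P4 replicate 5 shared a slide with HIPP replicates 1 to 3, HIPP replicates 4 and 5 shared one with shCtBP2 replicates 1 and 2, and shCtBP2 replicates 3 to 5 had their own. CTBP2 itself was lower on 5 of 5 shCtBP2 arrays, with a mean log2 ratio of -0.41 ± 0.11 (SD, n = 5), or 75.4% of the control, which missed the threshold (limma, adjusted p = 0.060). At 1.33-fold it also lay under the 1.5-fold threshold used below. By real-time PCR the study reports a larger, significant loss of CtBP2 mRNA against scramble, and less protein on western blots.

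The position of each probe was read from the array files on build hg17, and exon annotation of that build was not used here. The probe for LPAR1 lies at chr9:110716740-110716799 on the minus strand, that for LPAR2 at chr19:19596271-19596330 and that for LPAR3 at chr1:85043147-85043206, both also on the minus strand. S1PR1 was read at chr1:101418342-101418401 on the plus strand and S1PR2 at chr19:10196274-10196333 on the minus strand. S1PR3 had 3 probes on the plus strand, of which the one at chr9:88845947-88846006 is listed under the receptor's older name EDG3. The other 2, at chr9:88837420-88837479 and chr9:88840062-88840121, are listed as C9orf47, which RefSeq now treats as a synonym of S1PR3.
The probe of S1PR2 and the EDG3 probe of S1PR3 are shown because both were well above background in all 30 channels. The S1PR3 reading is the mean of its 3 probes, of which the EDG3 probe is 1.
S1PR2 probe: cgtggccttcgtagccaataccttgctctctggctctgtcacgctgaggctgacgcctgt
S1PR3 probe (EDG3): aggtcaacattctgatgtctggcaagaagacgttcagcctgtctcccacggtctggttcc

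The 250 bases before the transcription start were taken from RefSeq (GRCh38.p14) for the receptors, since CtBP2 has no DNA-binding specificity of its own and is brought to promoters by factors such as ZEB1 and SNAI1, which read the E-box CACCTG, or CAGGTG on the other strand. Capitals mark these 6 letters. They occur in 17.5% of 34943 such windows. All 6 windows before the listed LPAR1 starts and the window of S1PR1 were without them, the LPAR2 window held 2 and the LPAR3 window held 1. The S1PR2 window and both S1PR3 windows were also without them, and neither of these genes was called lower in any treatment. The 4 windows below set the receptors with a lower reading (LPAR1, at its most upstream start, and S1PR1) beside those that hold the E-box. These are matches of letters in one window, not sites.
LPAR1, chr9:111038999-111039248, minus strand: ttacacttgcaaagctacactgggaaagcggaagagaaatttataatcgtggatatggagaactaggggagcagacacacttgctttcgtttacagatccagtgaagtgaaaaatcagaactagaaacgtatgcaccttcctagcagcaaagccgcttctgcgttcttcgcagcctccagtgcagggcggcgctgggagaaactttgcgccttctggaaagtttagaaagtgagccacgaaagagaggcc
S1PR1, chr1:101236769-101237018, plus strand: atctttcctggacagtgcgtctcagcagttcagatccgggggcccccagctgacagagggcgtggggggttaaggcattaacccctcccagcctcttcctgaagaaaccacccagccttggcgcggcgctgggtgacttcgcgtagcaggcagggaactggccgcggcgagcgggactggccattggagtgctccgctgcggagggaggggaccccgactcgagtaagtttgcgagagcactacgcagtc
LPAR2, chr19:19628221-19628470, minus strand: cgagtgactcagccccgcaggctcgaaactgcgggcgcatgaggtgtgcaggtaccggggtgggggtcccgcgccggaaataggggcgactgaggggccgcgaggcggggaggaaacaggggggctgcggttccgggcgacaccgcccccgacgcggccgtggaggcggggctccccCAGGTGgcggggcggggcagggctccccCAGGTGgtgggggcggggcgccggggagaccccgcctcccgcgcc
LPAR3, chr1:84893207-84893456, minus strand: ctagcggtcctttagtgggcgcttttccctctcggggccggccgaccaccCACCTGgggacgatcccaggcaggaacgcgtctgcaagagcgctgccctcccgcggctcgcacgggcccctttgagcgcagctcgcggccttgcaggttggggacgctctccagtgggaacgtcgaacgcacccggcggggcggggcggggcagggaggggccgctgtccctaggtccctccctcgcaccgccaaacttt

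A gene was called differentially expressed at an adjusted p below 0.05 (limma on log2 ratios, Benjamini-Hochberg over 27579 genes tested) and a linear fold change of at least 1.5 in shCtBP2, 2.5 in HIPP and 1.8 in P4, the thresholds of the study's methods. By this rule 2 of the 7 genes were called in shCtBP2, LPAR1 lower and ENPP2 higher, 2 in HIPP, LPAR1 and S1PR1 both lower, and 1 in P4, LPAR1 lower. Of all genes tested, 6.55% were called in shCtBP2, 7.05% in HIPP and 8.46% in P4. The median log2 ratio of the 7 was 0.47, 0.08 and 0.10 in the 3 treatments, against 0.04, 0.08 and 0.11 over all genes tested. Lower calls made up 3.21%, 3.62% and 4.17% of the genes tested. The array measures RNA of the whole culture, so fewer expressing cells and less RNA per cell cannot be told apart.

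**Figure D1:**
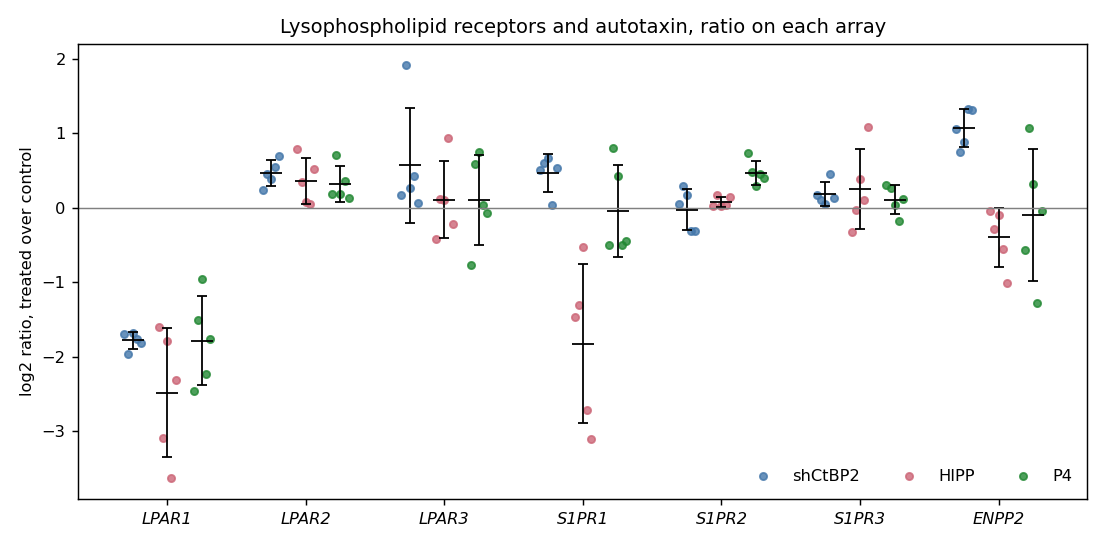
Log2 ratio of treated over control signal (y axis) for the 7 genes on each array, with 1 point per array and 5 points per treatment. The short line and the bar are the mean and SD. LPAR1 lies below 0 on all 15 arrays, S1PR1 is lower on the 5 HIPP arrays and ENPP2 is higher on the 5 shCtBP2 arrays.

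LPAR1, the LPA receptor most often tied to cell motility, was lower on all 15 arrays. In shCtBP2 cells the log2 ratios were -1.70, -1.97, -1.68, -1.76 and -1.82, a narrow band that left 29.1% of the control signal. In HIPP they were -1.60, -3.09, -1.79, -3.63 and -2.31, and in P4 -2.46, -1.51, -0.96, -2.23 and -1.76. The spread was thus wider with the inhibitors (SD 0.87 in HIPP and 0.59 in P4) than in the knockdown (SD 0.12), but no array came near 0. The means passed the test in shCtBP2 (limma, adjusted p = 0.00039), HIPP (adjusted p = 1.69e-06) and P4 (adjusted p = 0.00014). Of the 22972 genes tested in all 3 treatments, 75 (0.326%) were called lower in each, and 3.83% had a ratio under 0 on all 15 arrays.

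Both channels of LPAR1 were readable. Control signals were 173 to 269 on the shCtBP2 arrays, 260 to 472 on the HIPP arrays and 218 to 306 on the P4 arrays. Treated signals were 53.3 to 70.9, 30.5 to 137 and 39.6 to 131, so that treated and control signals did not overlap in any treatment, as for 4.53%, 7.85% and 4.49% of genes with all treated signals below all control signals. Only the treated channel of HIPP replicate 4, at 30.5, was not well above background. The LPAR1 ratio in HIPP minus that in shCtBP2 was -0.70 on the log2 scale (95% interval -1.47 to 0.06, limma adjusted p = 0.17), and that in P4 minus shCtBP2 was -0.00069 (-0.77 to 0.76, adjusted p = 0.999). These intervals leave room for differences of over 1.5-fold in either inhibitor.

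Within the slide that held both treatments, LPAR1 averaged -1.83 on the 2 shCtBP2 arrays and -2.97 on the 2 HIPP arrays. With slide as a fixed block the LPAR1 call was lost in shCtBP2 (-1.41, adjusted p = 0.069) and held in HIPP and P4. With normexp background correction, which adds 50 to every signal before the log, and loess normalization, changed together, the ratio in HIPP was -0.90 and fell short of the 2.5-fold threshold at an adjusted p of 0.00083. The same alternative gave -0.89 in shCtBP2 and -1.04 in P4, smaller decreases that kept their call (adjusted p = 0.0050 and 0.00044), and -0.02 for the difference between HIPP and shCtBP2 (adjusted p = 0.97).

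**Figure D2:**
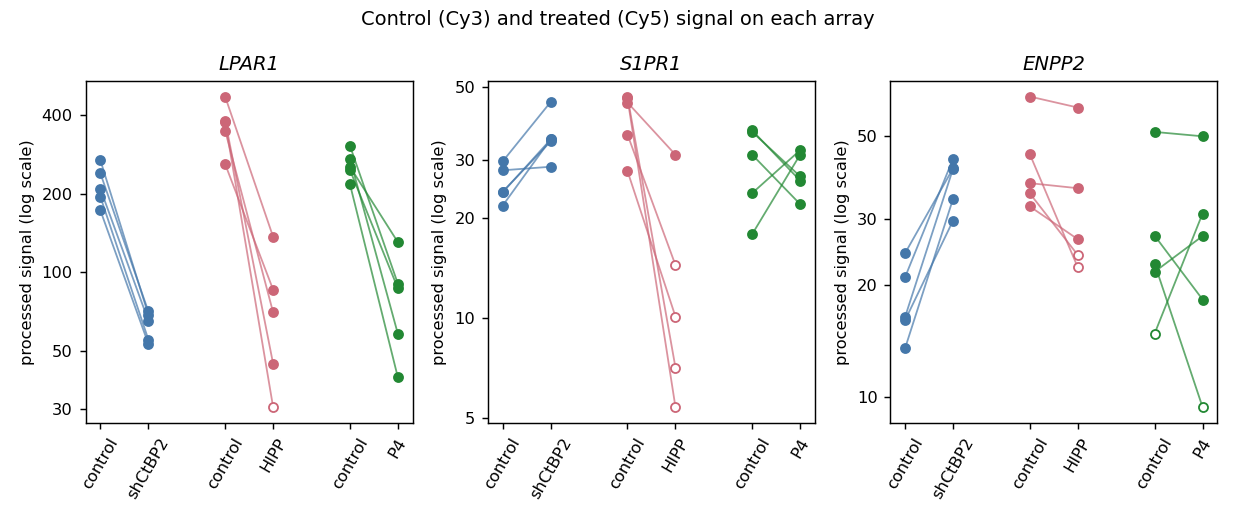
Processed signal (log scale) of LPAR1, S1PR1 and ENPP2 in the control (Cy3) and treated (Cy5) channel of each array, joined by a line, for shCtBP2 (blue), HIPP (red) and P4 (green). Filled points were well above background and open points were not. For LPAR1 every line falls, for S1PR1 4 of the 5 HIPP signals drop into the background, and for ENPP2 the 5 shCtBP2 lines rise.

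The genes whose ratios were most like those of LPAR1 over the 15 arrays, among 17470 genes with a current symbol measured on all of them, were SLK (Pearson r = 0.96), TMPO (0.95), TP53RK (0.95), DCK (0.95) and CCNE2 (0.94). SLK is a Ste20-like kinase, TMPO encodes a lamina-associated protein, DCK is deoxycytidine kinase and CCNE2 is cyclin E2. Their mean log2 ratios were smaller than that of LPAR1, for example -0.27 in shCtBP2, -1.04 in HIPP and -0.51 in P4 for TMPO. With each treatment's mean removed the correlations were still 0.93 to 0.96, so the likeness lay mostly in how arrays of one treatment differed from each other. Arrays share slide and hybridisation, and these r are a description.

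LPAR2 couples to the same G proteins as LPAR1 and is often raised in carcinoma. Its ratio was above 0 on all 15 arrays, as was that of 4.05% of genes tested in all 3 treatments, with means of 0.47 ± 0.17 in shCtBP2, 0.36 ± 0.31 in HIPP and 0.32 ± 0.24 in P4 (SD, n = 5). These correspond to 1.38-, 1.28- and 1.24-fold and were under the fold thresholds, with limma adjusted p of 0.017, 0.020 and 0.051. With normexp and loess they were 0.075, 0.087 and 0.099, and none passed the test (adjusted p = 0.38, 0.18 and 0.13). Control signals were 47.8 and 53.7 on the slide of shCtBP2 replicates 1 and 2 but 10.3 to 14.9 on the slide of replicates 3 to 5, where 2 of 3 control readings were not well above background. LPAR2 and LPAR1 thus lay on opposite sides of 0 on each of the 15 arrays. Each was read by 1 probe and dyes were never swapped. A lasting dye bias of a probe cannot be told apart from a shift shared by all 3 treatments.

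LPAR3, which prefers LPA with unsaturated acyl chains, was at background level on nearly every array. Only 1 of its 30 channel readings was well above background, the treated channel of shCtBP2 replicate 2, where the log2 ratio was 1.92 against 0.06 to 0.42 on the other 4 arrays of that treatment. The means were 0.57 ± 0.77, 0.11 ± 0.52 and 0.10 ± 0.60 in shCtBP2, HIPP and P4 (SD, n = 5; limma adjusted p = 0.17, 0.76 and 0.78). A further probe whose description names this receptor, listed only under an Ensembl transcript and so not counted here, was well above background in 1 control channel of HIPP and in no other channel. Of the 3 LPA receptors of the family, then, LPAR1 and LPAR2 were read above background on most arrays and LPAR3 was not.

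ENPP2, the autotaxin gene, was called higher in the knockdown and in neither inhibitor. In shCtBP2 cells the log2 ratios were 1.05, 0.75, 0.89, 1.33 and 1.32, a mean of 1.07 ± 0.26 (SD, n = 5) or 2.10-fold (limma, adjusted p = 0.0093). Treated signals of 29.7 to 43.5 lay above all control signals of 13.5 to 24.3, as for 4.34% of genes. Of all genes tested in shCtBP2, 3.34% were called higher. In HIPP the ratios were -0.04, -0.29, -0.10, -0.55 and -1.01, all below 0, with a mean of -0.40 that missed the threshold (adjusted p = 0.18). In P4 they were -0.57, 1.07, 0.32, -1.28 and -0.04, which scattered to both sides of 0 (adjusted p = 0.77). Of the 5 P4 arrays, 4 treated and 4 control readings were well above background, so this scatter rests partly on readings at background level.

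The ENPP2 ratio in HIPP minus that in shCtBP2 was -1.47 (95% interval -2.20 to -0.74, limma adjusted p = 0.0050), and -0.33 with normexp and loess (adjusted p = 0.017). Of the genes tested in both treatments 26.3% differed in either direction. On the slide with both treatments the means were 0.90 on 2 shCtBP2 arrays and -0.78 on 2 HIPP arrays. The treated readings of these 2 HIPP arrays (24.0 and 22.3) were not well above background, so the size of -0.78 is set by readings at background level. The P4 ratio minus that in shCtBP2 was -1.17 (-1.90 to -0.44, adjusted p = 0.038), a test that 12% of genes passed. P4 and shCtBP2 arrays of the same replicate number deviated together, as did some of different number. With the replicate number as a block this call was lost (-1.17, limma adjusted p = 0.050). No slide held both P4 and shCtBP2, and P4 replicate 5, at -0.04, was the only P4 array scanned on the day of the shCtBP2 arrays. The call was also lost without any 1 of the 5 shCtBP2 arrays or of P4 replicates 1, 4 and 5 (adjusted p of 0.051 to 0.086). The shCtBP2 call itself held when any replicate was left out but was lost with slide as a fixed block (1.27, adjusted p = 0.087) and, on fold size, with normexp and loess (0.26, adjusted p = 0.020).

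S1PR1, the Gi-coupled S1P receptor that guides lymphocyte exit and endothelial barrier function, was lower with HIPP. The 5 log2 ratios were -1.46, -1.31, -0.52, -2.72 and -3.10, with a mean of -1.82 ± 1.06 (SD, n = 5) or 28.2% of the control (limma, adjusted p = 0.00014; 3.62% of genes were called lower in HIPP). Its control signals were 27.8 to 46.7 and all well above background. The treated signals were 10.1, 14.5, 31.2, 7.08 and 5.38, of which only that of replicate 3 was well above background, so on 4 of 5 arrays the size of the decrease is set by a reading at background level. The 2 arrays with the lowest ratios shared a slide with shCtBP2 replicates 1 and 2, where S1PR1 was at 0.50 and 0.60.

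In shCtBP2 cells the S1PR1 ratios were 0.50, 0.60, 0.67, 0.04 and 0.53, all above 0 but short of the threshold (mean 0.47, limma adjusted p = 0.33), which was passed with slide as a fixed block (1.55, adjusted p = 0.024). In P4 they were -0.50, 0.80, 0.43, -0.50 and -0.45, with no direction (mean -0.04, adjusted p = 0.92). No HIPP array overlapped the shCtBP2 arrays, as for 21.1% of genes, and the ratio in HIPP minus that in shCtBP2 was -2.29 (95% interval -3.19 to -1.39, adjusted p = 0.00090), and -0.24 with normexp and loess (adjusted p = 0.039). The P4 ratio differed from shCtBP2 by -0.51 (-1.41 to 0.39, adjusted p = 0.49). With normexp and loess the S1PR1 ratio in HIPP was -0.16 and no longer reached the fold threshold (adjusted p = 0.037).

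Endothelial cells are known for high S1PR1, and PECAM1, an endothelial and leukocyte adhesion gene, was likewise called lower in HIPP (-1.95 ± 0.26, adjusted p = 6.59e-08). PECAM1 was also lower on 5 of 5 P4 arrays (-0.74, adjusted p = 0.0013), where S1PR1 was at -0.04. CDH5, with no control reading well above background, was called higher in shCtBP2 (limma adjusted p = 0.021, and 0.25 with normexp and loess). The other 4 markers of other cell types had mean ratios above 0 in HIPP, CDH5 of endothelial cells at 0.22, CD3E at 0.21, PTPRC at 0.17 and ALB at 0.32, and none passed the test (adjusted p of 0.58, 0.12 and 0.52, with ALB not tested). Of the 5 markers of other cell types, PECAM1 was above background in the control channel on 15 arrays, CD3E on 14, CDH5 on 5, PTPRC on 2 and ALB on 0. Their summed signal was 87.3 to 209.1 in the treated and 141.0 to 267.1 in the control channel of the HIPP arrays, 89.7 to 148.0 and 84.6 to 120.9 on the shCtBP2 arrays and 82.1 to 177.8 and 91.3 to 204.2 on the P4 arrays. Their part in the S1PR1 and ENPP2 results was not tested.

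S1PR2, which acts mainly through G12/13 and often opposes migration, was readable in all 30 channels. In P4 its log2 ratios were 0.73, 0.48, 0.30, 0.45 and 0.40, a tight group above 0 with a mean of 0.47 ± 0.16 (SD, n = 5). At 1.39-fold it passed the limma test (adjusted p = 0.0023) but not the 1.8-fold threshold of this treatment, and 17% of all genes passed the same test on the higher side. In shCtBP2 cells the ratios were 0.05, 0.29, 0.17, -0.31 and -0.32, and in HIPP 0.02, 0.17, 0.03, 0.03 and 0.14, with adjusted p of 0.89 and 0.54. The S1PR2 ratio was 0.50 higher in P4 than in shCtBP2 (95% interval 0.20 to 0.79, adjusted p = 0.031), and no P4 array overlapped a shCtBP2 array, as for 13% of genes. The call was lost without any 1 of shCtBP2 replicates 1, 4 and 5 or P4 replicates 1, 2, 4 and 5 (adjusted p of 0.050 to 0.084) and with slide as a fixed block (0.25, adjusted p = 0.64).

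S1PR3, a receptor that couples to Gi, Gq and G12/13, showed no call in any treatment over its 3 probes (0.18 ± 0.16 in shCtBP2, 0.25 ± 0.54 in HIPP and 0.11 ± 0.19 in P4, SD, n = 5; limma adjusted p = 0.48, 0.19 and 0.60). The probe listed as EDG3 alone gave 0.08 ± 0.22, -0.08 ± 0.16 and 0.05 ± 0.13, with all channels well above background. The 2 probes listed as C9orf47 disagreed with it and with each other. One averaged 0.56 in shCtBP2, 0.23 in HIPP and 0.57 in P4, whereas the other was above background in no channel. In HIPP the ratios of that dim probe ran from -0.62 to 3.05, and those of the EDG3 probe from -0.29 to 0.13.

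**Figure D3:**
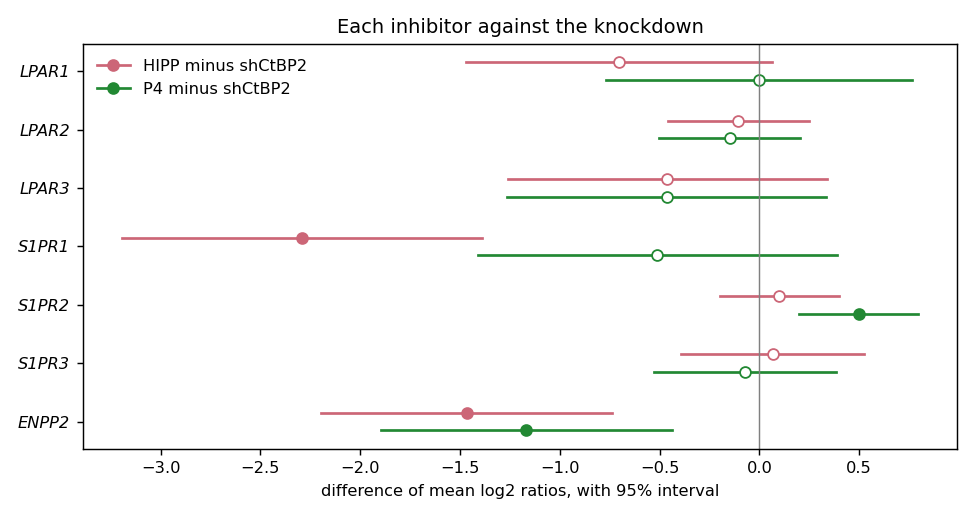
Difference between the mean log2 ratio in each inhibitor and in shCtBP2 (x axis) for the 7 genes, with the 95% interval from the limma fit. Filled points passed an adjusted p of 0.05. In this fit S1PR1 and ENPP2 passed between HIPP and shCtBP2, and S1PR2 and ENPP2 between P4 and shCtBP2. Both P4 differences lost the call with slide as a fixed block, and that of ENPP2 also with replicate number as a block. Without 1 array the P4 call was kept in 2 of 10 fits for ENPP2 and 3 of 10 for S1PR2.

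In HIPP and P4 side by side, LPAR1 read -2.49 and -1.78, S1PR1 -1.82 and -0.04, S1PR2 0.08 and 0.47, and ENPP2 -0.40 and -0.10 on the log2 ratio scale. The S1PR1 value in HIPP rests on 4 treated readings at background level and was -0.16 with normexp and loess. The methods give the 2 compounds different doses, and no test was made between them.

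Around these genes, 68 further members of the LPA and S1P pathways in 6 lists were on the array. Called were 6 of 57 tested in shCtBP2 (10.5%), 3 of 62 in HIPP (4.8%) and 4 of 63 in P4 (6.3%), against 6.55%, 7.05% and 8.46% of all genes. The shCtBP2 count was 1 without replicate 2 or 4 and 2 without replicate 5. Among 10 other lysophospholipid receptors 1 was called, GPR55, a receptor for lysophosphatidylinositol, which was higher on 5 of 5 shCtBP2 arrays (adjusted p = 0.029). None of its control readings there was well above background, so no ratio is given, and its adjusted p was 0.22 with normexp and loess. Of 11 genes of LPA production, GDPD1, a phosphodiesterase that can release LPA from lysophospholipids, was called higher in shCtBP2 (1.17 ± 0.67, adjusted p = 0.031). Only 2 of its 5 control readings were well above background, so the size of this ratio rests partly on readings at background level. In HIPP 3 of the 11 had an adjusted p below 0.05 on the higher side, LIPH at 0.89, GDPD3 at 0.84 and DDHD1 at 0.71, and 2 on the lower side, PLA2G4A (cytosolic phospholipase A2) at -0.98 and AGK at -0.85. All 5 were under the fold threshold of that treatment, and 24.8% and 23.9% of all genes passed the same test on the higher and the lower side.

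Of the enzymes that remove LPA 7 were tested in shCtBP2, of which 1 was called lower, 1 higher and 5 did not pass the test. Of all genes tested there, 3.21% were called lower and 3.34% higher. AGPAT2, an acyltransferase that turns LPA into phosphatidic acid, was called lower (-0.76 ± 0.13, adjusted p = 0.0013), and its relative AGPAT4 higher (0.60 ± 0.38, adjusted p = 0.017), a call that held under 6 of 12 alternatives. AGPAT2 was also lower on 5 of 5 arrays in HIPP (-0.53, limma adjusted p = 0.0030) and in P4 (-0.55, adjusted p = 0.0050), under the fold thresholds of those treatments. In HIPP the phosphatase PLPP3, which dephosphorylates LPA and S1P at the cell surface, was called lower (-1.33 ± 0.92, adjusted p = 0.00052). At 2.51-fold it lay at the threshold, and the call held under 9 of 12 alternatives and was lost without HIPP replicate 4 (-0.99) or 5 (-1.22). Of this list, 4 of 7 tested in HIPP and 3 of 9 in P4 had an adjusted p below 0.05 on the lower side. The shares of all genes were 23.9% and 14.8%. The higher side had 1 in each treatment, against 24.8% and 17% of all genes. None of the 10 genes for S1P synthesis, export and removal that the array holds was called in any treatment, with 4 of 9 tested in HIPP and 3 of 9 in P4 at an adjusted p below 0.05 on the higher side, against 24.8% and 17% of all genes. On the lower side 2 of the 9 passed in HIPP, SGPP1 at -0.65 and ACER3 at -0.69, against 23.9% of all genes, and 0 in P4, against 14.8%. Of the 18 G proteins and their effectors none was called either, although in HIPP 10 of 15 tested had an adjusted p below 0.05 on the lower side, which the same 23.9% of all genes had, and 1 on the higher side (GNAQ, 1.30). One of the 10, PLCB4, was well above background in no channel. On the lower side 0 of 14 passed in shCtBP2, against 6.87% of all genes, and 2 of 16 in P4, against 14.8%.

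Of 10 genes known to be induced by LPA or S1P, CCN2 was called lower in HIPP (-2.80 ± 0.47, adjusted p = 4.78e-08) and P4 (-1.71 ± 0.50, adjusted p = 2.16e-05), and CCN1 in P4 (-1.50 ± 0.33, adjusted p = 4.83e-06). CCN1 was also lower on 5 of 5 HIPP arrays (-1.19, adjusted p = 8.68e-06), under the 2.5-fold threshold of that treatment. Both encode matricellular proteins of the YAP response. FOS, an immediate early gene, was called lower in HIPP (-1.55 ± 1.26, adjusted p = 0.048) and P4 (-1.67 ± 0.79, adjusted p = 0.049), close to the threshold in both. PTGS2, the inducible cyclooxygenase, went the other way and was called higher in P4 (1.804 ± 0.14, adjusted p = 2.88e-06) and shCtBP2 (0.65 ± 0.54, adjusted p = 0.016). The shCtBP2 call held under 8 of 12 alternatives and was lost without replicate 2 (0.64), 4 (0.43) or 5 (0.64). In HIPP PTGS2 was at 1.14 on average and higher on 5 of 5 arrays (adjusted p = 4.02e-05), under the fold threshold. IL6 was called lower in shCtBP2 (-0.68 ± 0.34, adjusted p = 0.034), a direction that turned with slide as a fixed block (0.058). The median of the list was -0.15 in shCtBP2, -0.93 in HIPP and -0.39 in P4, against 0.04, 0.08 and 0.11 over all genes. Called lower were 1 of 8 tested in shCtBP2, 2 of 10 in HIPP and 3 of 10 in P4, against 3.21%, 3.62% and 4.17% of all genes. At an adjusted p below 0.05 on the lower side were 4 of 10 in HIPP and 4 of 10 in P4, against 23.9% and 14.8%. These included THBS1 in HIPP (-0.94) and HBEGF in P4 (-0.59), both under the fold thresholds.

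**Figure D4:**
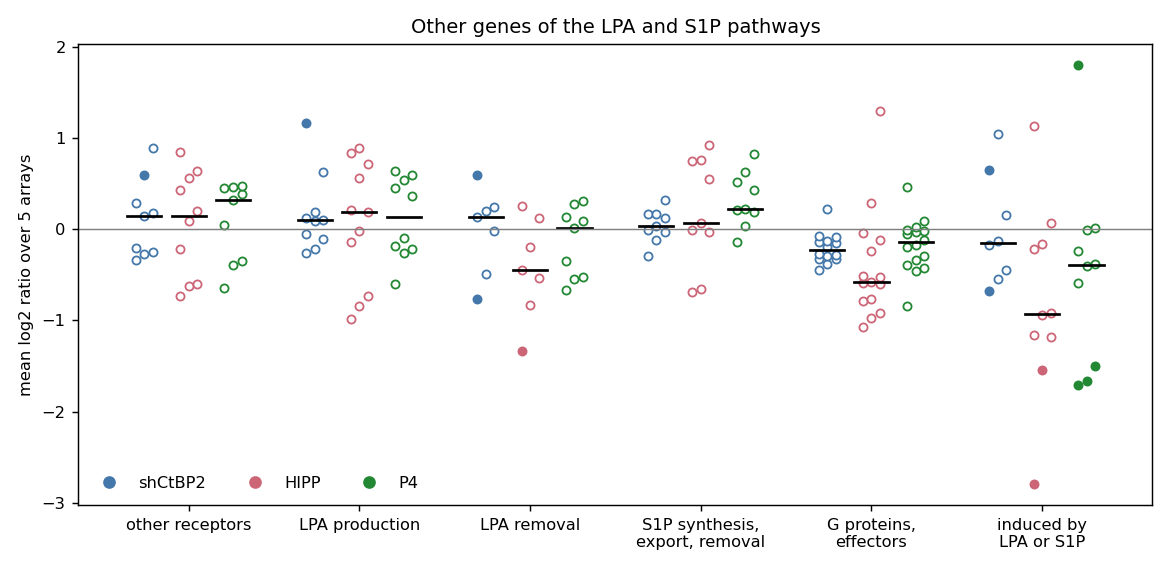
Mean log2 ratio over 5 arrays (y axis) of every tested gene in the 6 pathway lists, for shCtBP2 (blue), HIPP (red) and P4 (green). Filled points are genes called differentially expressed and black lines are list medians. The genes known to be induced by LPA or S1P lie lowest in HIPP, with CCN2 at -2.80, and PTGS2 is at 1.804 in P4.

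**Figure D5:**
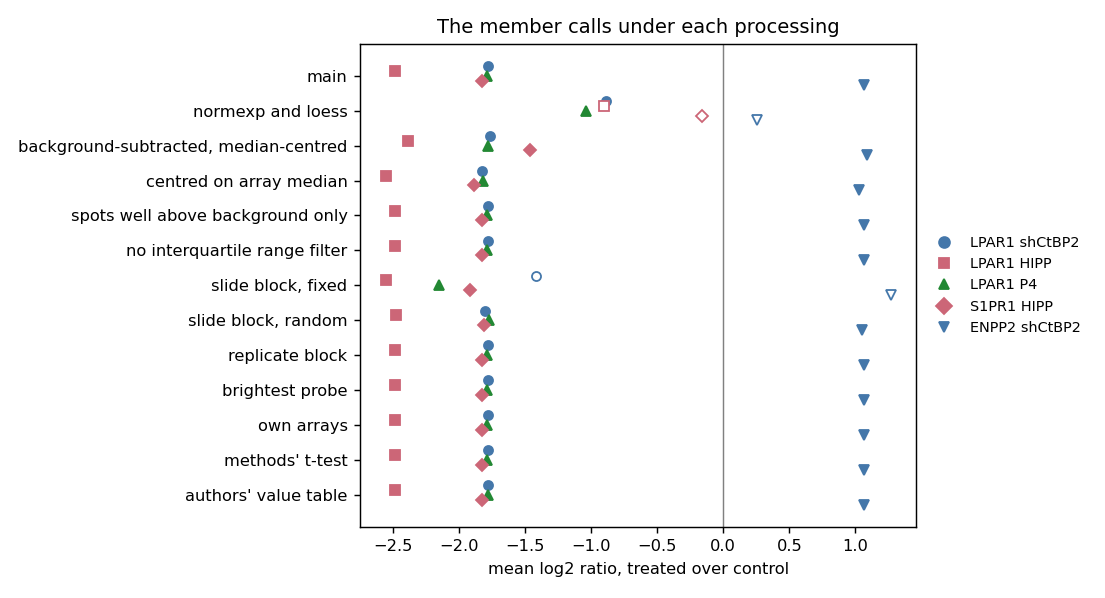
Mean log2 ratio (x axis) of the 5 calls among the receptors and ENPP2 under the reported processing and 12 alternatives. Filled symbols kept the call and open symbols lost it. LPAR1 stays below 0 throughout, and the open symbols lie in the rows of normexp with loess and of the fixed slide block.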

How the data were processed

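RNA of 15 cultures was hybridised to two-colour Agilent 4x44K arrays. Per the file headers the authors' scanner files were made with Feature Extraction 9.5.3.1 and hold background-subtracted, dye-normalized intensity values. The deposited value table holds log10 ratios of Cy5 over Cy3, which matched the scanner files to within 0.00499. Scanner files use decimal commas, which were read as points.

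Spots flagged as non-uniform or population outliers were left out (78 to 265 per array). Log2 ratios of the processed signals were averaged over spots of a probe and probes of a gene. Symbols were updated through RefSeq (23845 probes by accession, 2018 by symbol, 963 by older symbol; 14174 keep the array's name). Genes with at least 3 arrays of a treatment, without the lowest 11% by interquartile range of the 10 channel signals, were tested in 1 fit over 15 arrays (limma 3.58.1, R 4.3.3). This replaced the t-test of the methods, which was run as an alternative. The script was tested on simulated data. The number of arrays limits the precision. The labels tie replicate numbers to no batch. Deviations from the treatment means correlated at r of 0.138 to 0.352 in all 5 same-number pairs of P4 with shCtBP2. For HIPP with shCtBP2, 4 of 5 such pairs were above 0.1. Pairs of different number reached similar r, with 0.171 for shCtBP2 replicate 1 and P4 replicate 2, against 0.158 with P4 replicate 1. Replicates 1 and 2 of shCtBP2 correlated negatively with replicates 3 to 5 of both inhibitors (-0.06 to -0.267). The numbers were thus not clear pairs.

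The genes and lists were chosen with earlier results of these data known. Text names all 7 genes, CTBP2, at most 4 called genes per list and treatment with 1 sign on all arrays, and 5 genes most like LPAR1; PECAM1, GNAQ, PLCB4 and the genes named at an adjusted p below 0.05 without a call were chosen after their values were seen. Alternatives covered background correction, centring, dim spots, the variability filter, slide and replicate blocks, probe choice, separate fits, the value table and leaving out each array. S1PR3 from its EDG3 probe alone was added after seeing the data.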

Additional observations from a re-analysis of the deposited data

Results flagged for a closer look

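LPAR3 in shCtBP2 replicate 2 stood far from the other 4 arrays, at a log2 ratio of 1.92, where the treated channel alone was well above background. S1PR1 in shCtBP2 replicate 4, at 0.036, stood below the other 4 arrays. CCN1 in P4 had 1 array at -0.94, above the rest. Of 21 groups of 5 ratios among the 7 genes 2 were set apart in this way, and chance alone sets apart about 1 in 20.

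The effect differed between treatments by the test of the difference for S1PR1 (HIPP minus shCtBP2, -2.29), ENPP2 (HIPP minus shCtBP2, -1.47, and P4 minus shCtBP2, -1.17) and S1PR2 (P4 minus shCtBP2, 0.50). Slide moved with these treatments, and HIPP and shCtBP2 shared 1 slide while P4 and shCtBP2 shared none. P4 replicates 1 to 4 were also scanned on another day than all other arrays. P4 and shCtBP2 are linked through the HIPP arrays alone, and with slide as a fixed block their differences were -1.58 for ENPP2 (limma, adjusted p = 0.25) and 0.25 for S1PR2 (adjusted p = 0.64), neither past the threshold.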

How the results depend on the processing

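LPAR1 in P4 kept its call under all 12 alternatives and without any 1 array. LPAR1 in shCtBP2 lost it with slide as a fixed block (-1.41), and LPAR1 in HIPP with normexp and loess (-0.90). S1PR1 in HIPP lost its call with normexp and loess (-0.16) and ENPP2 in shCtBP2 with normexp and loess (0.26) and the fixed slide block (1.27). That alternative changed the background correction and the normalization together, and the part of each was not tested. The genes called fell to 269 in shCtBP2, 280 in HIPP and 586 in P4, from 1806, 1943 and 2334. The methods' t-test called 968 genes in shCtBP2 and 891 in P4. Members called in shCtBP2 were 1 with normexp and loess (LPAR1) and 1 with the fixed slide block, where neither LPAR1 nor ENPP2 kept its call and S1PR1 gained one (1.55, adjusted p = 0.024). In HIPP 0 members were called with normexp and loess. List genes called were 0 in shCtBP2 and 1 in HIPP with normexp and loess, 2 and 1 with the t-test, 5 in HIPP with the brightest probe, 8 in P4 with the fixed slide block, and 1 to 7 in shCtBP2 without 1 array. Apart from leaving out arrays, the calls of FOS held under 6 of 12 alternatives in HIPP and 7 of 12 in P4, that of AGPAT4 under 6 of 12 and that of GPR55 under 6 of 11.

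Of the differences, S1PR1 and ENPP2 in HIPP kept their call wherever they were tested, at a smaller size with normexp and loess (-0.24 and -0.33) and at -3.46 and -1.68 (adjusted p = 0.0498 for ENPP2) with the fixed slide block, and with background-subtracted signals 0 members differed because neither passed the filter. For P4 the number of members that differed was 1 with normexp and loess, 1 with median centring, 1 with the replicate block, 0 with the fixed slide block and 0 to 2 without 1 array. ENPP2 in P4 against shCtBP2 lost its call with normexp and loess (-0.20), the fixed slide block (-1.58) and the replicate block (-1.17, adjusted p = 0.050), with -1.46 to -0.87 without 1 array. S1PR2 there lost it with median centring (0.50, adjusted p = 0.056) and the fixed slide block (0.25), with 0.42 to 0.57 without 1 array.

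IL6 in shCtBP2, called lower, turned to 0.058 with the fixed slide block. The other values that changed sign passed the test under neither setting. With normexp and loess these were LPAR3 in HIPP (-0.068) and P4 (-0.0078), S1PR1 in P4 (0.043), ENPP2 in P4 (0.062) and the LPAR2 differences (0.012 for HIPP, 0.023 for P4). With the fixed slide block they were LPAR3 in P4 (-0.0046), S1PR2 in shCtBP2 (0.10), S1PR3 in shCtBP2 (-0.14), and the differences of S1PR2 in HIPP (-0.082) and S1PR3 in P4 (0.57). The P4 difference of LPAR1 was 0.0014 with median centring and 0.032 with slide as a random block. Background-subtracted signals gave LPAR3 in HIPP -0.037 and S1PR3 in P4 -0.13, spots well above background gave the S1PR3 difference in HIPP -0.25, and the value table gave LPAR3 in P4 -0.052. Without 1 array the ranges were -0.21 to 0.17 for the P4 difference of LPAR1, -0.10 to 0.24 for LPAR3 in HIPP, -0.055 to 0.32 for LPAR3 in P4, -0.25 to 0.072 for S1PR1 in P4, -0.10 to 0.048 for S1PR2 in shCtBP2 and -0.39 to 0.19 for ENPP2 in P4. The cause of these moves was not tested.

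Deviations of arrays with the same replicate number correlated above 0.1 in 13 of 15 pairs (lowest -0.03), among them all 5 of P4 with shCtBP2, and in 19 of 60 pairs with different numbers, and 7 of 15 arrays correlated best with their own number. The replicate block raised the genes at an adjusted p below 0.05 in shCtBP2 from 3694 to 4967 and the genes called from 1806 to 2221. Apart from ENPP2 in P4 against shCtBP2 it changed no call of these 7 genes.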
